A study of Mus musculus with 24 samples.

Results

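The 32 genes described here belong to the NF-kB pathway of the mouse: 14 components that sense, carry or form the signal and 18 genes that the pathway is known to induce, among them 4 endothelial adhesion molecules. They were found by gene symbol in the platform annotation, with the probe set of the highest mean over all arrays kept for each gene. Of these, 29 had a probe set among the 19505 genes on the array, 11 components and all 18 induced targets. No probe set was named here for Nfkb1, Irak1 or Chuk. The tissue was the brain of male C57Bl/6j mice of 8 to 10 weeks. Of the animals, 8 had an intraluminal occlusion of the middle cerebral artery (MCAO) for 90 minutes, and brains were taken after 30 minutes of reperfusion, 2 h after onset. The other 4 mice had sham surgery and no occlusion. The hemisphere on the operated side (ipsilateral) and the opposite one (contralateral) of each mouse were measured on separate arrays, which gave 8, 8, 4 and 4 arrays. All animals were perfused with saline before the brain was taken, and a whole hemisphere holds tissue outside the territory of the artery. The labels number each mouse, and mice of the same number in the 2 surgery groups are different animals.

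NF-kB is a family of dimeric transcription factors that IkB proteins hold in the cytoplasm. Receptors such as the Toll-like receptors signal through adaptors and the IKK complex, which marks IkB for destruction and frees the dimers to enter the nucleus. Among the first genes then transcribed are inhibitors of the pathway itself (Nfkbia, which encodes IkB alpha, and Tnfaip3, which encodes the ubiquitin-editing enzyme A20), followed by cytokines and by adhesion molecules that let leukocytes attach to the vessel wall. In the ischemic brain this response is known from endothelium, microglia and later from infiltrating leukocytes. The activation of NF-kB is itself a change of protein location, which RNA does not measure.

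Promoters of 3 members are shown for the sequence to which NF-kB dimers are known to bind. Each is the 250 bases before the annotated start, 5′ to 3′ on the strand of the gene, from RefSeq on build GRCm38.p6, with matches to the NF-kB consensus in capitals. Nfkbia and Tnfaip3 are the feedback inhibitors named above, and Rel is the component with the highest side difference after occlusion. The windows are chr12:55492648-55492897 for Nfkbia, chr10:19015411-19015660 for Tnfaip3 and chr11:23770970-23771219 for Rel, all on the minus strand.
Nfkbia: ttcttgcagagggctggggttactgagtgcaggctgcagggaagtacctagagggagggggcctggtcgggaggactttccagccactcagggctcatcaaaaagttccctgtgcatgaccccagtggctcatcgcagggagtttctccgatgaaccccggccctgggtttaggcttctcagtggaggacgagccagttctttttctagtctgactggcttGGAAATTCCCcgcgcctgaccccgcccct
Tnfaip3: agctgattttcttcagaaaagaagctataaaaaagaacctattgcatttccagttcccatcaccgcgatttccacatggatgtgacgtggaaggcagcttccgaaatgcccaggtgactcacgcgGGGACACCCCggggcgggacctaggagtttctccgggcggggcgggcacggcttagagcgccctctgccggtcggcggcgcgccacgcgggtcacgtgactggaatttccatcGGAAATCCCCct
Rel: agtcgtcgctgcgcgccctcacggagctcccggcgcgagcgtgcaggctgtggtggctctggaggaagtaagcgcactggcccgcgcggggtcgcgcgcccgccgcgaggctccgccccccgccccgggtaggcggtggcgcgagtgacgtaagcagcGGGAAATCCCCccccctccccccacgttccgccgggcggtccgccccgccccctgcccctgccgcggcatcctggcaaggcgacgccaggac
The match in Nfkbia began 29 bases before the start, those in Tnfaip3 125 and 12 bases before it, and the run of overlapping matches in Rel 92 bases before it. Of the 29 measured members, 22 had at least 1 such window, and 9 of these held the consensus on either strand: Nfkb2 and Rel among 8 components, and Nfkbia, Nfkbie, Tnfaip3, Tnip1, Tlr2, Tnfaip2 and Irf1 among 14 induced targets. Over all promoters of this length, 7.25% of 32851 windows and 8.23% of genes held it, and members with several starts had several windows. Of the other sequences searched, TGANTCA, the AP-1 element, was found in 7 of the 22 members and 7.82% of genes, and TTCNNNGAA, the STAT element, in 8 members and 8.13% of genes. TGACGTCA, the full CRE, was found in Birc2 alone, against 1.77% of genes. These are matches of letters and not measured binding sites.

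Of the 24 arrays, 4 stood apart: both hemispheres of MCAO mouse 3 and of sham mouse 1. Their median correlation with the other 20 arrays was 0.33 to 0.55, where the 20 correlated at 0.98 to 0.99 among themselves. Positive controls averaged 4.69 to 5.01 on the 4 and 6.51 to 6.74 on the 20, and only on the 4 did this lie below the upper range of the negative controls (95th percentile, 7.41 to 7.61). Each member's result is therefore given for all 24 arrays, as the design has them, and again for the 20, with 7 MCAO and 3 sham mice. The 20 arrays read as brain tissue: all 15 neuronal and all 12 astrocyte marker genes lay above background on all of them. This does not check the labels of side, surgery or mouse. On the 4 arrays the mean of the neuronal markers was 5.4 to 7.03, below that range of the negative controls.

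A member counts as above background where its log2 signal exceeded that of 95% of the negative controls on the same array, a threshold of 5.17 to 5.74 on the 20 arrays. By that measure 5 of the 29 members were above background on all 20 arrays, 10 on some and 14 on none. The 5 were Rela, the subunit p65, with a mean log2 signal of 8.33, Nfkbib (IkB beta, 7.48), Nfkbia (7.29), Tnfaip6 (a secreted hyaluronan-binding protein, 6.40) and Birc2 (the ubiquitin ligase cIAP1, 6.39). Tnip1, a partner of A20, was above background on 19 arrays, Rel (the subunit c-Rel) on 16 and Cd83, a surface protein of activated antigen-presenting cells, on 8. The members above background on none of the 20 arrays included the receptors Tlr2 and Tlr4, their adaptor Myd88, the subunits Nfkb2 and Relb, Socs3 and 3 of the 4 adhesion molecules. The selectins Sele and Selp, also on none, had mean log2 signals of 1.68 and 1.63. With a threshold at 99% of the negative controls, no member was above background on all 20 arrays and 26 were on none. For a member below background, a log2 difference is a difference of signal and can understate a difference of RNA. Signal also depends on the probes, so levels are compared between groups and not between genes. In a whole hemisphere, fewer cells of a type and less RNA per cell cannot be told apart.

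**Figure D1:**
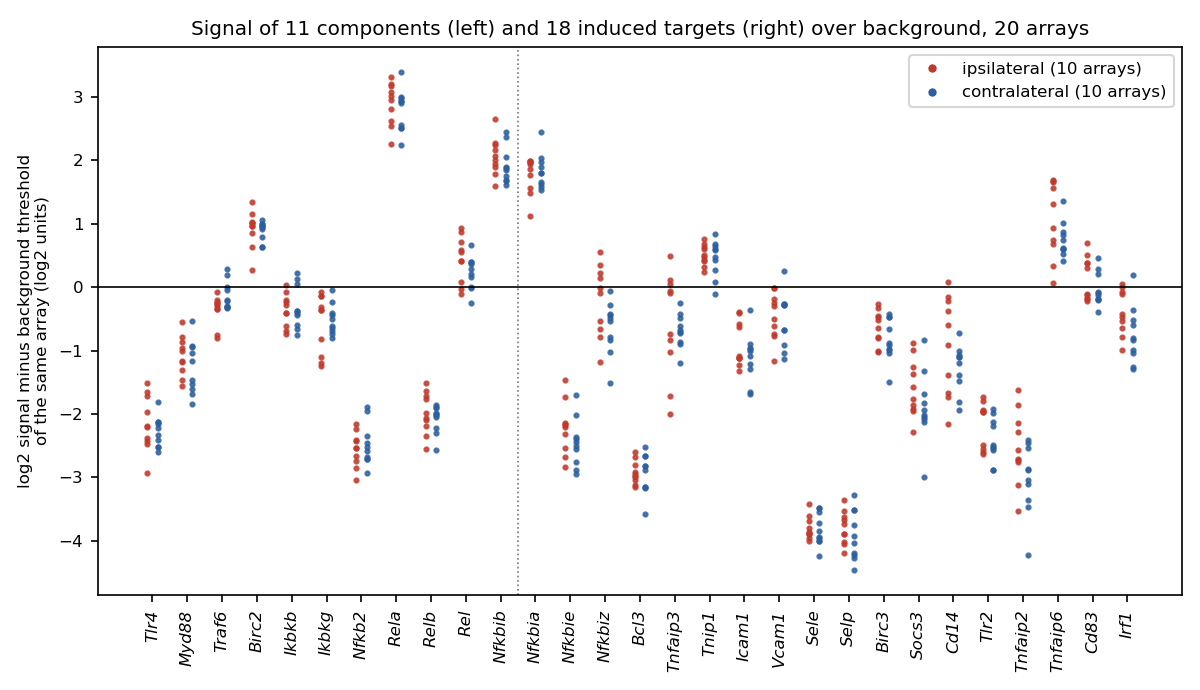
Log2 signal of each of the 29 members minus the background threshold of the same array (vertical axis, log2 units), 1 point per array for the 20 arrays, with 11 components on the left and 18 induced targets on the right, ipsilateral in red and contralateral in blue. Points of 5 members lie above the line at 0 on all 20 arrays, those of 14 lie below it on all 20, and in no member do the 2 colours separate.

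The first comparison set the occluded hemisphere against the opposite one of the same 8 mice. No member passed the test at a limma p under 0.05 after Benjamini-Hochberg adjustment over 22206 probe sets (0 of 29 in either direction, where 0.0856% of all probe sets were higher and 0 lower). The members' counts on the 20 arrays were again 0 and 0, beside 0.126% of probe sets higher and 0.00901% lower. At an unadjusted p under 0.05, 6 members were higher (Cd14, Cd83, Rel, Tnfaip6, Socs3 and Nfkbiz, against 1.74% of all probe sets) and 1 was lower (Traf6, against 2.4%). This count of 7 was 2 to 7 when single mice were left out, 2 without MCAO mouse 4 and 3 without mouse 7. It was 4 without mouse 2, 6 or 8, 3 after quantile normalization and 1 with no replicate block. Without the 4 arrays, 5 were higher (the same genes without Socs3, 3.18% of all) and 2 lower (Traf6 and Nfkb2, 3.92%). The median log2 difference was 0.11 over the 18 induced targets and -0.07 over the 11 components, and 0.12 and 0.01 on the 20 arrays. Differences were above 0 for 11 targets and 5 components, 16 of 29 members in all, where 49.4% of all probe sets were above 0. On the 20 arrays it was 19 of 29, against 48.4%. In this comparison the 95% intervals of all 29 members stayed within 1 log2 unit of 0, with a highest upper limit of 0.89 and a lowest lower limit of -0.69, and 0.82 and -0.62 on the 20 arrays. For the 14 members above background on none of the 20 arrays, these intervals bound signal and not necessarily RNA. The comparisons that use the sham mice were wider, with both limits within 1 for 24 members between the sham sides, 17 in the interaction, 16 between ipsilateral and 17 between contralateral hemispheres (27, 22, 25 and 28 on the 20 arrays).

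**Figure D2:**
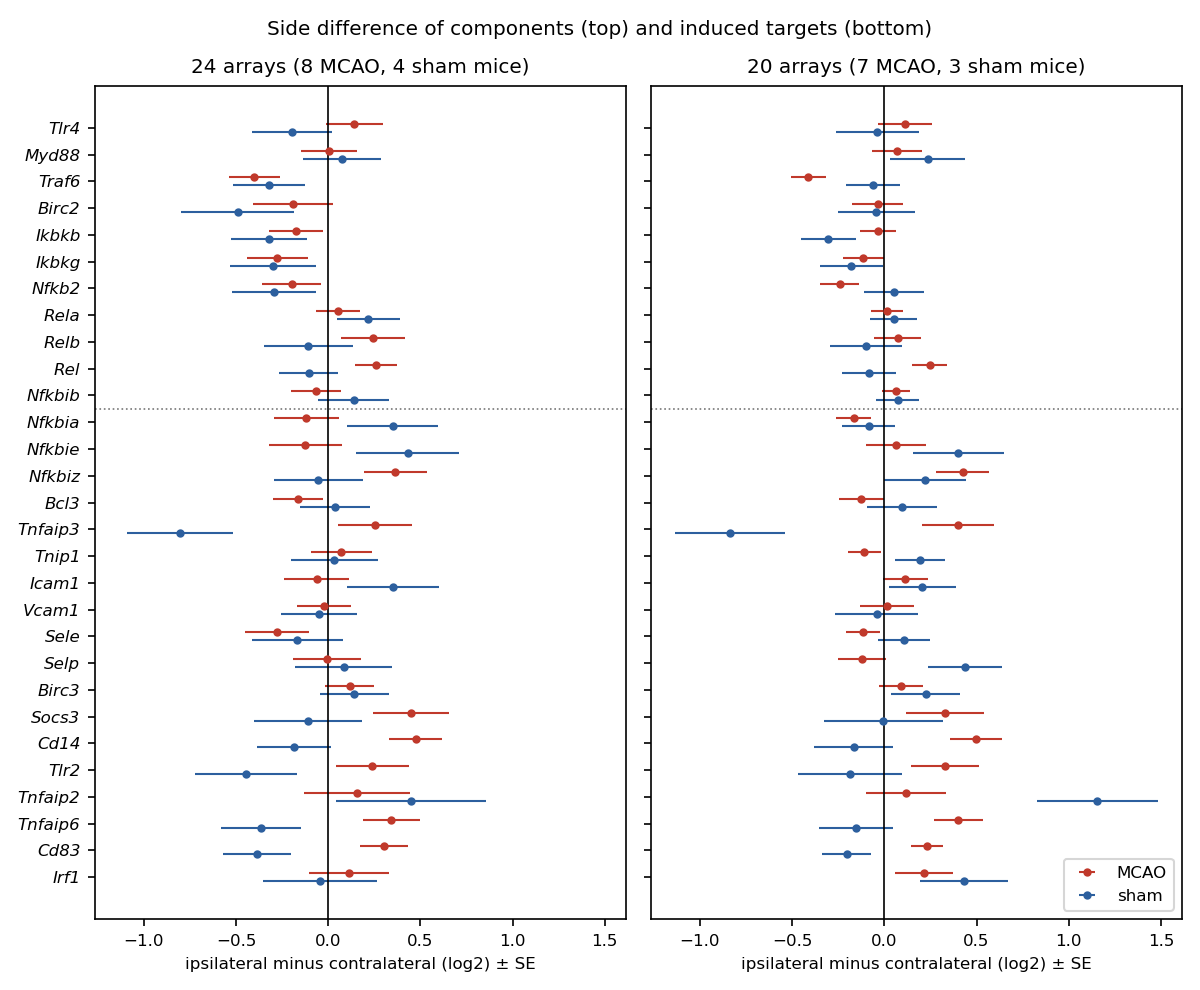
Ipsilateral minus contralateral log2 signal (horizontal axis, ± SE from limma) of the 11 components (above the dotted line) and the 18 induced targets (below it), in MCAO mice (red) and sham mice (blue), for 24 arrays on the left and 20 on the right. MCAO values run from -0.40 (Traf6) to 0.47 (Cd14) on 24 arrays, and no member passed the test in either panel.

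Among receptors and adaptors, Cd14 and Traf6 were the only members with 1 sign in every MCAO mouse. Cd14, the co-receptor that hands bacterial and damage-associated ligands to the Toll-like receptors, had log2 signals of 4.25 to 7.55 (median 5.04) in the occluded hemispheres and 4.16 to 7.23 (median 4.39) in the opposite ones. The highest value on each side was that of MCAO mouse 3, and without it the ranges were 4.25 to 5.32 and 4.16 to 4.78, which overlapped. Within mice the difference was 0.05 to 0.89 (median 0.45), higher on the occluded side in 8 of 8. Its mean was 0.47 ± 0.14 (SE, limma adjusted p = 0.919), and 0.50 ± 0.14 on the 20 arrays (adjusted p = 0.385). In sham mice the Cd14 difference was -0.25, 0.25, -0.82 and 0.07, with both signs. Of all probe sets, 0.707% were higher in all 8 mice and 0.63% lower, and 1.22% each way in the 7 mice of the 20 arrays. The Cd14 probe set was above background on 1 of the 20 arrays, an occluded hemisphere.

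Traf6, the ubiquitin ligase that carries the signal of Toll-like and interleukin-1 receptors to the kinases, was the member with the lowest difference. It was at 4.40 to 5.32 (median 5.00) in the occluded hemispheres and 4.72 to 5.61 (median 5.42) in the opposite ones, lower in 8 of 8 mice with differences of -0.83 to -0.15. The mean was -0.40 ± 0.14 (adjusted p = 0.940) and -0.41 ± 0.10 on the 20 arrays (adjusted p = 0.225). It was above background on 2 of the 20, both contralateral hemispheres of MCAO mice. Sham mouse 1 had a lower difference than any MCAO mouse, at -1.11, and the other 3 sham mice were at 0.13, -0.17 and -0.14.

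Tlr2, a Toll-like receptor of lipoproteins that NF-kB itself induces, was at 2.88 to 4.38 (median 3.44) in the occluded and 2.76 to 4.77 (median 2.99) in the opposite hemispheres. It was higher in 5 of 8 mice, with differences from -0.71 to 1.08 and a mean of 0.24 ± 0.20 (adjusted p = 0.940), and 0.33 ± 0.18 on the 20 arrays. The mice did not share a sign. Tlr4, the receptor of endotoxin, was at 0.14 ± 0.15 and 0.11 ± 0.15 on 24 and 20 arrays, and Myd88, the adaptor of both receptors, at 0.01 ± 0.15 and 0.07 ± 0.13. Birc2, which was above background on all 20 arrays, was at -0.19 ± 0.22, and -0.04 ± 0.14 on the 20 arrays. Birc3 (cIAP2), which is induced by the pathway, was at 0.12 ± 0.13 and 0.09 ± 0.12.

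The IKK complex was represented by its catalytic subunit Ikbkb and its scaffold Ikbkg (NEMO). Ikbkb was at -0.18 ± 0.15 and Ikbkg at -0.28 ± 0.16 on all arrays, and at -0.03 ± 0.10 and -0.11 ± 0.11 on the 20. Ikbkg was at 1.95 to 5.33 (median 4.99) in the occluded and 3.35 to 5.20 (median 5.01) in the opposite hemispheres. Both lowest values belonged to MCAO mouse 3, whose difference was -1.41, where the other 7 mice were between -0.64 and 0.21.

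Of the 4 measured NF-kB subunits, Rel was higher on the occluded side in 7 of 8 mice, Relb in 5, Rela in 4 and Nfkb2 in 3. The Rel signal was 5.72 to 6.34 (median 5.99) in the occluded and 5.38 to 5.90 (median 5.76) in the opposite hemispheres. Its differences ran from -0.02, in MCAO mouse 1, to 0.45. The mean was 0.26 ± 0.11 (adjusted p = 0.940), and 0.25 ± 0.10 on the 20 arrays (adjusted p = 0.609). Rel was above background in all 14 MCAO hemispheres of the 20 arrays, and in 1 of 3 sham arrays on each side. Some values lay close to the threshold of their array. MCAO mouse 5 was at 5.65 contralaterally against a threshold of 5.64, and sham mouse 2 at 5.68 ipsilaterally against 5.71. Contralateral Rel signals overlapped between the surgeries on the 20 arrays, at 5.65 to 5.90 after MCAO and 5.36 to 5.94 after sham. Rela, which was above background on all 20 arrays, was at 0.05 ± 0.12, and at 0.01 ± 0.08 on the 20 arrays with a 95% interval of -0.17 to 0.20. Relb, a subunit of the alternative pathway, was at 3.09 to 5.21 (median 3.60) and 3.21 to 3.77 (median 3.49), a difference of 0.24 ± 0.17. That value rested on MCAO mouse 3 at 1.44, since on the 20 arrays Relb was at 0.07 ± 0.13. Nfkb2, the precursor of p52, was at 2.38 to 3.70 (median 2.87) and 2.72 to 3.60 (median 3.14), with -0.20 ± 0.16 on all arrays and -0.24 ± 0.11 on the 20 (adjusted p = 0.674). It was lower in 5 of 7 mice there, and below background throughout.

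The inhibitors did not go one way. Nfkbia, whose transcript is a common readout of NF-kB activity, was above background on all 20 arrays. It was at 5.19 to 7.39 (median 7.17) in the occluded hemispheres and 4.97 to 7.61 (median 7.26) in the opposite ones. Without MCAO mouse 3 the ranges were 6.77 to 7.39 and 7.00 to 7.61. The difference was -0.12 ± 0.17 (adjusted p = 0.942), and -0.17 ± 0.09 on the 20 arrays (adjusted p = 0.801), where it was higher in 1 of 7 mice. The 95% interval on the 20 arrays was -0.37 to 0.04. Nfkbib, the IkB that the pathway does not induce, was at -0.07 ± 0.14 and 0.06 ± 0.08, and Nfkbie (IkB epsilon) at -0.12 ± 0.20 and 0.06 ± 0.16.

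Nfkbiz, a nuclear IkB protein that co-activates a subset of targets, was at 5.10 to 5.96 (median 5.55) in the occluded and 4.74 to 5.58 (median 5.00) in the opposite hemispheres. It was higher in 6 of 8 mice, with MCAO mouse 3 at -0.06 and mouse 5 at -0.27 against up to 1.00 in mouse 4. The mean was 0.36 ± 0.17 (adjusted p = 0.940), and 0.42 ± 0.15 on the 20 arrays (adjusted p = 0.524). Its probe set was above background on 4 of the 20 arrays, all of them occluded hemispheres. Tnfaip3 was at 3.49 to 5.73 (median 5.25) against 4.26 to 5.08 (median 4.74), higher in 6 of 8 mice. Its difference was 0.25 ± 0.20, and 0.40 ± 0.19 on the 20 arrays (adjusted p = 0.736), with MCAO mouse 1 at -0.53 and mouse 4 at 0.96. All 3 of the 20 arrays with Tnfaip3 above background were occluded hemispheres. Bcl3, a nuclear IkB protein, was at -0.16 ± 0.13 and -0.12 ± 0.12, and Tnip1 at 0.07 ± 0.17 and at -0.11 ± 0.09 on the 20 arrays.

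The 4 adhesion molecules showed no shared difference. Icam1, the ligand of leukocyte integrins, was at 4.02 to 5.01 (median 4.58) in the occluded and 4.22 to 5.32 (median 4.55) in the opposite hemispheres, a difference of -0.06 ± 0.18, and 0.11 ± 0.12 on the 20 arrays. Vcam1, the integrin ligand that holds lymphocytes and monocytes, was at 3.32 to 5.26 (median 5.00) and 3.61 to 5.42 (median 5.01), a difference of -0.02 ± 0.15 and 0.01 ± 0.15. The ranges of both genes overlapped between the sides. Sele and Selp, the selectins on which leukocytes roll, were at -0.28 ± 0.17 and -0.01 ± 0.19, and at -0.11 ± 0.09 and -0.12 ± 0.13 on the 20 arrays. The Sele value of MCAO mouse 3 was -1.43, and the other 7 mice were between -0.52 and 0.21. The 95% intervals on the 20 arrays were -0.15 to 0.37 for Icam1, -0.30 to 0.33 for Vcam1, -0.31 to 0.09 for Sele and -0.40 to 0.16 for Selp. Icam1, Sele and Selp were below background on all 20 arrays and Vcam1 on 19, so these intervals bound signal and not necessarily RNA.

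Among the other induced genes, Tnfaip6 was above background on all 20 arrays. It was at 5.88 to 7.07 (median 6.79) in the occluded and 5.95 to 6.52 (median 6.31) in the opposite hemispheres. In MCAO mice 2, 4, 6, 7 and 8 it was higher by 0.38 to 1.03, and in mice 1, 3 and 5 it was at -0.19, -0.07 and -0.09. The mean was 0.34 ± 0.15 (adjusted p = 0.940), and 0.40 ± 0.13 on the 20 arrays (adjusted p = 0.488). Socs3, the inhibitor of STAT3 signalling, was at 3.46 to 4.65 (median 4.09) against 2.65 to 4.34 (median 3.65). Its mean of 0.45 ± 0.21 rested largely on MCAO mouse 5 at 2.00 and mouse 3 at 1.28, since the median over mice was 0.23 and the other 6 mice were between -0.19 and 0.35. Without mouse 3 and sham mouse 1 it was at 0.33 ± 0.21 (adjusted p = 0.825), and without mouse 5 alone at 0.23. Cd83 was at 5.27 to 5.96 (median 5.78) against 5.17 to 5.70 (median 5.37), higher in 7 of 8 mice. Its difference was 0.30 ± 0.13 (adjusted p = 0.940), and 0.23 ± 0.09 on the 20 arrays (adjusted p = 0.578). A second Cd83 probe set, below background on all arrays, was at 0.09 ± 0.16. Irf1, an interferon-regulatory transcription factor, was at 0.11 ± 0.22, and Tnfaip2, a gene of endothelial and myeloid cells, at 0.16 ± 0.29. Their values on the 20 arrays were 0.22 ± 0.16 and 0.12 ± 0.22.

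**Figure D3:**
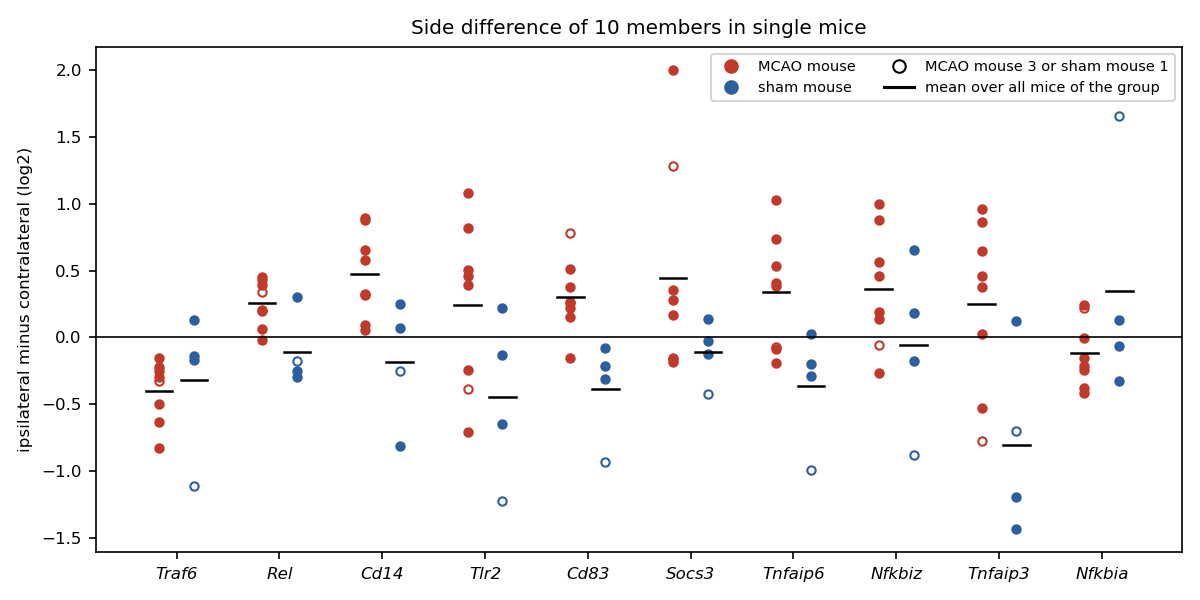
Ipsilateral minus contralateral log2 signal (vertical axis) of 10 members in single mice, MCAO in red and sham in blue, with open circles for MCAO mouse 3 and sham mouse 1 and bars for the mean of all mice of a group. Cd14 points of MCAO mice lie between 0.05 and 0.89 and Traf6 points between -0.83 and -0.15, and the Socs3 point at 2.00 is MCAO mouse 5.

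The targets were unevenly spread over the mice. In MCAO mice 2 and 4, 16 and 14 of the 18 induced targets were higher on the occluded side, with medians of 0.39 and 0.32, and mouse 7 followed with 11 and a median of 0.25. In the other 5 MCAO mice 7 to 9 targets were higher, with medians between -0.11 and -0.04. Of the 11 components, 6, 5 and 7 were higher in mice 2, 4 and 7, and 3 to 8 in the other 5. Of the 18 targets, 9 were above background on none of the 20 arrays and 2 on all, so these counts include signs of dim signals. The median of all probe sets was between -0.07 and 0.03 in every MCAO mouse. Of all probe sets, 53.8% were higher in mouse 2, 50.5% in mouse 4, 49.2% in mouse 7 and 42% to 51.8% in the other 5. In the sham mice this share was 47.9% to 49.7%. In sham mice 2, 3 and 4, 10 to 12 targets were higher on the operated side, with medians of 0.06 to 0.13, and in sham mouse 1, one of the mice whose arrays stood apart, 3 were higher with a median of -0.57.

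The sham mice gave the side difference without occlusion. No member was called (0 of 29 in either direction, and 0 of all probe sets), on 24 arrays or on 20. Of the members, 0 were higher in all 4 sham mice (5.2% of all probe sets) and 2 lower (6.35%). At an unadjusted p under 0.05, 0 members were higher (2.68% of all probe sets) and 2 lower (3.58%). The 2 were Tnfaip3 at -0.80 ± 0.29 and Cd83 at -0.39 ± 0.18 (adjusted p = 0.711 for both). Tnfaip3 was below background on all sham arrays of both sides, and Cd83 on all but 1, a contralateral one. These are therefore differences of signal and not necessarily of RNA. Tnfaip3 in the operated sham hemispheres was at 3.64, 4.98, 3.57 and 3.74 in mice 1 to 4, and in the opposite ones at 4.34, 4.85, 5.00 and 4.93. Mouse 2 stood above the other 3 on the operated side, and the opposite side lay within the contralateral range of the MCAO mice. With 20 arrays Tnfaip3 was at -0.84 ± 0.30 and Cd83 at -0.20 ± 0.13. There Tnfaip2 was at 1.15 ± 0.33 and Selp at 0.44 ± 0.20, both below background on all 20 arrays. They were among 6 members higher in 3 of 3 mice (11.5% of all probe sets), and 2 were lower in 3 of 3 (12.5%). At an unadjusted p under 0.05, 2 members were higher there (2.8% of all) and 1 lower (2.7%).

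The interaction, the side difference of MCAO mice minus that of sham mice, tests whether the 2 surgeries differed. No member and no other probe set was called (0 of 29 in either direction, with 0% of all probe sets, on both sets of arrays). At an unadjusted p under 0.05, 4 members were positive, all of them induced targets, and 0 negative, against 2.64% and 2.48% of all probe sets. They were Tnfaip3 at 1.06 ± 0.35, Cd83 at 0.69 ± 0.22, Tnfaip6 at 0.70 ± 0.27 and Cd14 at 0.66 ± 0.25 (adjusted p = 0.891 for each). Without the 4 arrays they were at 1.24 ± 0.36, 0.44 ± 0.16, 0.55 ± 0.24 and 0.66 ± 0.26, beside 2.8% of all probe sets. Tnfaip2 and Selp were negative there, at -1.04 ± 0.39 and -0.55 ± 0.24, beside 3.11% of all. For Tnfaip3 the interaction is the MCAO value of 0.25 less the sham value of -0.80. The sham value comes from arrays on which Tnfaip3 was below background. The side differences of MCAO and sham mice overlapped for all 29 members, where 0.288% of all probe sets were higher without overlap and 0.18% lower, and 1.07% and 0.95% on the 20 arrays.

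Set against the operated hemispheres of the sham mice, the occluded ones again gave no called member (0 of 29 in either direction, against 0.0045% of all probe sets higher and 0 lower). Without the 4 arrays the members' counts stayed at 0, with 0.126% of all probe sets higher and 0.0225% lower. At an unadjusted p under 0.05, 3 members were higher, Nfkbiz, Tnfaip3 and Tnfaip6 (0.612% of all probe sets), and 0 lower (0.401%). With the 20 arrays these 3 were joined by Cd14, Rel and Tlr2 (3.85%), with 0 lower (3.63%).

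Nfkbiz was the 1 member whose 12 values did not overlap, where 0.117% of all probe sets were higher without overlap and 0.063% lower. It was at 5.10 to 5.96 in the 8 occluded hemispheres and at 4.00, 4.53, 4.78 and 4.79 in sham mice 1 to 4. The difference was 0.97 ± 0.23 (adjusted p = 0.968), and 0.78 ± 0.17 on the 20 arrays (adjusted p = 0.164). No sham hemisphere had Nfkbiz above background. The groups were separate in rank, and the member did not pass the adjusted test.

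Cd14 was at 4.25 to 7.55 in the occluded hemispheres and at 6.37, 3.98, 3.42 and 3.78 in sham mice 1 to 4. The 2 highest values of the 12 came from MCAO mouse 3 and sham mouse 1, and the difference over all arrays was 0.83 ± 0.62 (adjusted p = 0.968). It was 1.49 without sham mouse 1, 0.50 without MCAO mouse 3 and 0.51 without sham mouse 3. On the 20 arrays Cd14 was at 4.25 to 5.32 against 3.42 to 3.98, without overlap, a difference of 1.16 ± 0.22 (adjusted p = 0.0628, 95% interval 0.69 to 1.63). With array quality weights on all 12 arrays it passed the test, at 1.25 ± 0.22 (adjusted p = 0.0118), the 1 setting of those run in which any member was called. On the 20 arrays all 3 sham values and 6 of the 7 MCAO values were below background.

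Tnfaip3 was at 3.49 to 5.73 in the occluded hemispheres against 3.57 to 4.98 in sham, where no array had it above background. The difference was 1.01 ± 0.42, and 1.11 ± 0.31 on the 20 arrays (adjusted p = 0.346). Rel did not overlap on the 20 arrays, at 5.82 to 6.34 against 5.35 to 5.68, a difference of 0.47 ± 0.14 (adjusted p = 0.396). With sham mouse 1 at 6.48 and MCAO mouse 3 at 5.72 the Rel difference was 0.20 ± 0.24. Cd14, Nfkbiz and Rel were the 3 members without overlap on the 20 arrays, where 1.4% of all probe sets were higher without overlap and 0.986% lower. Tnfaip6 was at 0.76 ± 0.31 and 0.63 ± 0.22, and Tlr2 at 0.26 ± 0.31 and 0.40 ± 0.18. Nfkbia was at 6.77 to 7.39 against 7.27 to 7.44 on the 20 arrays, so the occluded values reached below the sham ones. The adhesion molecules had a median difference of -0.11, and 0.02 on the 20 arrays.

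**Figure D4:**
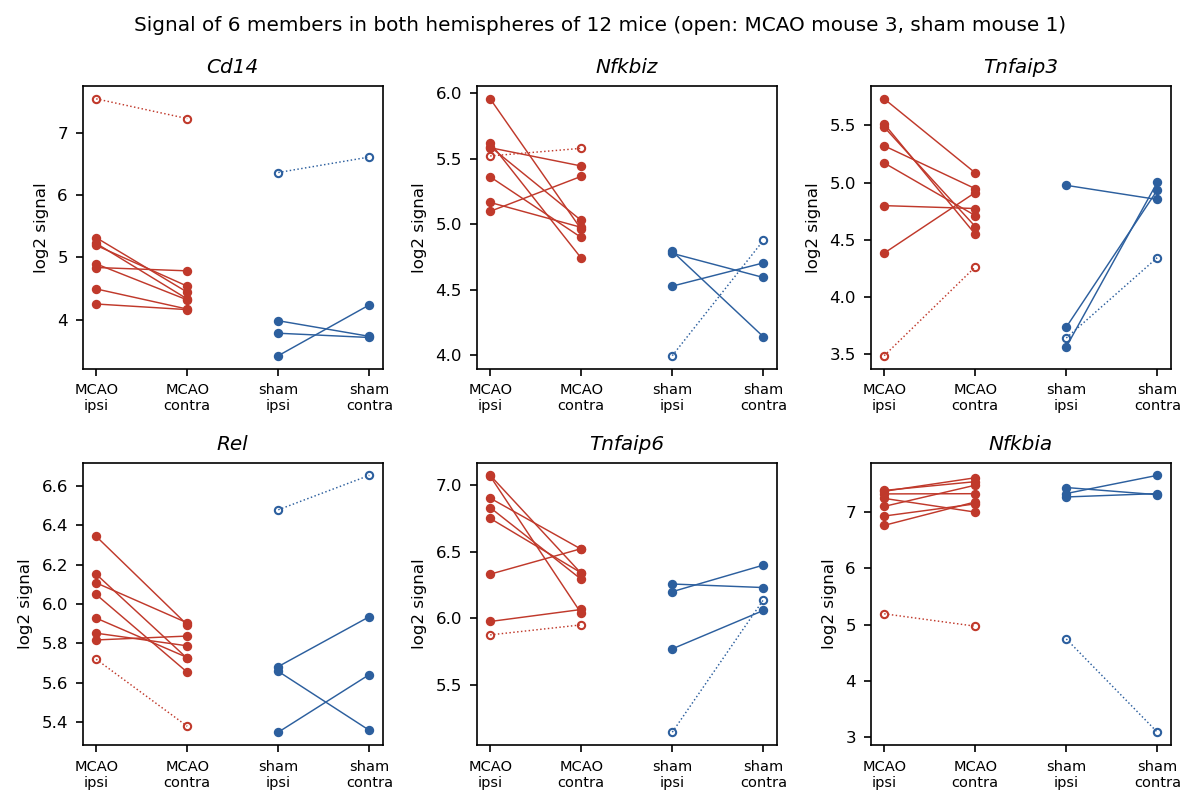
Log2 signal (vertical axis, a scale of its own for each gene) of 6 members in the 4 groups, with a line joining both hemispheres of a mouse, MCAO in red, sham in blue and open circles for MCAO mouse 3 and sham mouse 1. Nfkbiz values of the 8 occluded hemispheres, 5.10 to 5.96, lie above the 4 operated sham hemispheres, and the open circles lie apart from the rest for Cd14 and Nfkbia.

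The last comparison set the contralateral hemispheres of MCAO mice against those of sham mice, with no called member and no called probe set (0 of 29 in either direction and 0% of all) on both sets of arrays. At an unadjusted p under 0.05, 1 member was higher (0.207% of all probe sets), Nfkbiz at 0.55 ± 0.24 (adjusted p = 0.997), and 0 were lower (0.158%). No member was without overlap on the 24 arrays (0.0495% of all probe sets higher, 0.027% lower). At the same threshold the 20 arrays gave 5 (2.52% of all), with 0 lower (2.07%): Tnfaip2 at 0.81 ± 0.18 (adjusted p = 0.988), Nfkbiz at 0.58 ± 0.17, Cd14 at 0.50 ± 0.16, Selp at 0.46 ± 0.17 and Icam1 at 0.37 ± 0.16. All 5 were below background on every contralateral array of the 20, so these are differences of signal and not necessarily of RNA. Nfkbiz was at 4.74 to 5.45 in the MCAO mice and at 4.70, 4.59 and 4.14 in sham mice 2 to 4. Tnfaip2, Nfkbiz and Selp did not overlap between the groups on the 20 arrays, where 0.779% of all probe sets were higher without overlap and 0.599% lower. With all 24 arrays Tnfaip2 was at 0.13 and Selp at -0.13, since sham mouse 1 was at 5.82 and 4.35, above every other mouse. This comparison and the previous one share no arrays but share the mice, and both use the same few sham animals.

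The genes around these members were read from lists of the same pathway, chosen with earlier results of these data known. A count above the share of all probe sets is therefore not a test of the pathway. Of 28 measured further NF-kB targets, 2 were called higher in the occluded hemisphere, where 0.0856% of all probe sets were. Junb, an AP-1 subunit, rose by 1.24 ± 0.16 (adjusted p = 0.00243), and Ptgs2, the inducible cyclooxygenase, by 1.63 ± 0.24 (adjusted p = 0.00762). Each was higher in 8 of 8 mice, as were 0.707% of all probe sets. Without the 4 arrays Zfp36, which encodes an mRNA-decay protein, joined Junb and Ptgs2 at 1.28 ± 0.15 (adjusted p = 0.00329), beside 0.126% of all called higher. Against the operated sham hemispheres these 3 rose on the 20 arrays, Junb by 2.05 ± 0.17, Zfp36 by 2.00 ± 0.20 and Ptgs2 by 2.10 ± 0.22, where again 0.126% of all probe sets were higher. On all 24 arrays none of the 3 was called there, with Junb at 2.03 ± 0.42 (adjusted p = 0.696), Zfp36 at 2.01 ± 0.37 (adjusted p = 0.373), Ptgs2 at 2.00 ± 0.30 (adjusted p = 0.195) and 0.0045% of all probe sets higher. All 3 are also known as immediate early genes that other signals induce. The other measured targets, among them the cytokines Tnf, Il1b and Il6 and the chemokines Ccl2 and Cxcl1, were not called, and these 5 were below background on all 20 arrays. None was called among 34 upstream receptors and signalling genes, 15 further inhibitors, 15 SOCS and STAT3 genes and 22 leukocyte adhesion genes, on 24 arrays or on 20. In the first list Il1r1, the interleukin-1 receptor, was at -0.46 ± 0.17. Ly96, the partner of Tlr4, was at 0.30 ± 0.16 and below background on all 20 arrays. Nfkbid, a nuclear IkB protein, was at 0.47 ± 0.20 and 0.62 ± 0.18 on the 20 arrays (adjusted p = 0.413), higher in 7 of 8 mice and below background on the 20 arrays, and N4bp1, an inhibitor of the pathway, was at -0.32 ± 0.19. Among SOCS and STAT3 genes Il6st, the shared receptor chain of the interleukin-6 family, was at 0.32 ± 0.18 and Socs2 at -0.33 ± 0.21. Among leukocyte adhesion genes Selplg, the P-selectin ligand, was at 0.24 ± 0.15 and Cd99l2 at 0.28 ± 0.20.

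The mean levels of the marker lists for neutrophils and monocytes, microglia and endothelial cells overlapped between the sides. Overlap of these ranges does not compare the sides within a mouse. All 14 measured neutrophil and monocyte markers, Mpo, Elane and Ltf among them, were below background on all 20 arrays. Their mean log2 signal was 2.57 to 2.80 in the occluded and 2.57 to 2.81 in the opposite hemispheres of the 7 MCAO mice. S100a8 was at 0.35 ± 0.13, and 0.43 ± 0.10 on the 20 arrays (adjusted p = 0.187). There it was higher in 7 of 7 mice, as were 1.22% of all probe sets. Cxcr2 was at -0.37 ± 0.25. Here and in the marker lists below, the genes named were those of smallest p. The mean of the 14 microglial markers was 5.61 to 6.01 in the occluded and 5.49 to 5.99 in the opposite hemispheres, and that of the 15 endothelial markers 5.70 to 5.86 and 5.63 to 5.92. The microglial genes Sall1 and Gpr34 were at 0.26 ± 0.11 and 0.28 ± 0.15, both below background on all 20 arrays. The endothelial genes Slco1a4 and Abcb1a were at 0.29 ± 0.14 and 0.23 ± 0.13. Of the astrocyte markers Sox9 was at 0.46 ± 0.16 and S100b at 0.26 ± 0.16, and of the neuronal ones Elavl4 at 0.21 ± 0.15 and Nefh at -0.20 ± 0.16. Myh11 and Acta2 of the mural cells were at -0.31 ± 0.14 and -0.23 ± 0.25. Bpgm and Slc4a1 of erythroid cells, of which 3 markers were measured, were at -0.19 ± 0.17 and -0.18 ± 0.17. Myh11 and Slc4a1 were below background on all 20 arrays. No marker of these 7 lists was called on 24 arrays or on 20. The part of these cells in the values of Cd14, Tlr2 or the adhesion molecules was not tested.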

How the data were processed

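The values were deposited as log2 probe-set signals, a scale read from their range. The submitters' processing notes name Affymetrix Expression Console. Its version, the normalization and the annotation build were not stated in the sources used here. Of 29129 deposited probe sets, 6923 array controls were left out, and 22206 were tested with no filter on signal. Of these, 19572 had 1 gene symbol and 2634 were unnamed here. Comparisons used limma 3.58.1 in R 4.3.3 (lmFit and eBayes). Those within mice used all 24 arrays and a fixed term for each mouse, because the labels give both hemispheres of an animal 1 number, and those between mice used the 12 arrays of 1 side. On the 20 arrays, deviations from the group mean correlated at 0.11 to 0.31 between both sides of 1 animal, with a median of -0.02 between animals. The range between animals is not given, so these values describe the pairing and do not test it. Benjamini-Hochberg adjustment covered all probe sets tested, with a threshold of 0.05. Errors are SE and intervals 95% limits from limma, and the number of mice limits their precision. The code was tested on simulated data. Promoters were searched with Python 3.11.15.

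The members, the lists and the cell markers were chosen with earlier results of these data known. Members described by mouse were those among the 10 smallest unadjusted p in the MCAO side comparison on either set of arrays, or called in any comparison. From each list the called genes, or else the genes of smallest p, were named. Alternatives were the 20 arrays, other normalizations, array weights, other blocks, a filter on level and leaving out each mouse.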

Additional observations from a re-analysis of the deposited data

Results flagged for a closer look

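In 84 groups of member levels or side differences, 18 values lay far from the others of their group, and chance alone gives such a gap in about 1 in 20 groups. Of the 18, 17 belonged to MCAO mouse 3 or sham mouse 1, the mice whose arrays stood apart. In MCAO mouse 3, Cd14 was at 7.55 ipsilaterally, where the next mouse was at 5.32, and at 7.23 contralaterally. The same mouse was far below the others for Ikbkg, at 1.95 and 3.35, and for Nfkbia, at 5.19 and 4.97. It was above them for Sele, at 2.24 and 3.66, for Relb ipsilaterally at 5.21 and for Tlr2 contralaterally at 4.77. Its side differences of Sele, -1.43, and Relb, 1.44, also lay outside those of the other 7 mice. In sham mouse 1, Nfkbia was at 4.74 ipsilaterally and 3.09 contralaterally, Traf6 at 4.17 ipsilaterally, Ikbkg at 2.60 contralaterally and Sele at 3.22 contralaterally. The value from another mouse was Tnfaip3 in the operated hemisphere of sham mouse 2, at 4.98, where the next sham mouse was at 3.74.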

How the results depend on the processing

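The count of called members was 0 in all 5 comparisons under every alternative run, with 1 exception. With array quality weights, 1 member (Cd14, at 1.25 ± 0.22) was called between the ipsilateral hemispheres, and 50 probe sets in all. In the MCAO side comparison the 14 members described by mouse kept their sign under every alternative, but 8 of them moved by over 1.5 times when single mice were left out. Lowest and highest values were 0.12 (without MCAO mouse 5) and 0.38 (mouse 8) for Tlr2, 0.15 (mouse 4) and 0.40 (mouse 3) for Tnfaip3, -0.24 (mouse 3) and -0.12 (mouse 6) for Nfkb2, and 0.072 (mouse 3) and 0.34 (mouse 8) for Relb. They were 0.23 (mouse 5) and 0.54 (mouse 1) for Socs3, -0.34 (mouse 1) and -0.11 (mouse 3) for Ikbkg, -0.35 (mouse 4) and -0.11 (mouse 3) for Sele, and -0.17 (mouse 2) and -0.076 (mouse 5) for Nfkbia. All probe sets called there numbered 19, against 30 on the 20 arrays, 6 after quantile normalization, 64 with array weights and 9 in MCAO mice alone. With no replicate block this count was 0, and with a random replicate block 29, while members called stayed at 0 and the medians of components and targets at -0.07 and 0.11. The sham side difference turned on the 20 arrays for Nfkbiz (0.22), Sele (0.10), Nfkb2 (0.052) and Nfkbia (-0.085), and with array weights (0.20, 0.067, 0.0020 and -0.017). Quantile normalization turned it for Selp (-0.0020), turned the Tnfaip2 interaction (0.18) and Rel between ipsilateral hemispheres (-0.035), and, between contralateral ones, Cd14 (-0.044) and Tnfaip2 (-0.025). Selp there turned on the 20 arrays (0.46) and with weights (0.42). Signs also turned when single mice were left out. Sham side differences ran from -0.33 to 0.024 for Cd14, -0.29 to 0.22 for Nfkbiz, -0.32 to 0.10 for Sele, -0.48 to 0.052 for Nfkb2, -0.085 to 0.58 for Nfkbia, -0.082 to 0.44 for Selp and -0.20 to 1.15 for Tnfaip2. Interactions ran from -0.44 to 0.076 for Selp and -0.997 to 0.35 for Tnfaip2, and contralateral differences from -0.46 to 0.63 for Selp, -0.18 to 0.85 for Cd14 and -0.36 to 1.10 for Tnfaip2. The cause was not tested. With 3 or 4 sham mice and most members near or below background, these values fix neither a small difference nor its absence.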
